A study of Mus musculus with 7 samples.

Results

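The 35 genes described here are oocyte-specific and maternal effect genes, chosen by name from knowledge of the mouse oocyte: Gdf9, Bmp15, Zp1, Zp2, Zp3, Figla, Nobox, Sohlh1, Lhx8, Pou5f1, Nlrp5, Ooep, Tle6, Khdc3, Padi6, Zbed3, Nlrp2, Nlrp4f, Zar1, Zar1l, Npm2, Dppa3, H1foo, Nlrp14, Kpna7, Mos, Btg4, Cpeb1, Ybx2, Ddx4, Dazl, Mael, Oosp1, Oas1d and Bcl2l10. Each of the 35 symbols matched 1 of the 55487 Ensembl gene identifiers in the deposited counts, and all 35 were among the 18779 genes that were tested. Whole ovaries of adult C57BL/6J mice were sequenced to compare control offspring with a lineage exposed before birth to anti-Müllerian hormone (AMH), the granulosa cell hormone that is raised in polycystic ovary syndrome. The 3 control mice (CNTR) were born to dams given phosphate buffered saline from E16.5 to E18.5 of gestation, and were first-generation offspring by the study's methods. The 4 PAMH F3 mice were the third generation of a lineage whose founder dams received 0.12 mg/kg/day human AMH over the same days, bred within the lineage without further AMH. All 7 mice were at diestrus on postnatal day 60, and each gave 1 poly(A) library. Exposure and generation differed together between the groups, so their parts in any difference cannot be told apart, and the injections are subcutaneous in the labels but intraperitoneal in the methods.

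The oocyte grows inside its follicle for weeks while it stores the mRNA and protein that carry the embryo until its own genome is switched on. Over this time it builds the zona pellucida, signals to the surrounding granulosa cells through secreted growth factors, and packs maternal proteins into a complex beneath its membrane. Genes whose product in the egg is needed by the embryo, whatever the embryo's own genotype, are called maternal effect genes. Whether an mRNA comes from oocytes alone was not measured here, and in whole-ovary RNA fewer oocytes and less of an mRNA per oocyte cannot be told apart.

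The 35 genes together made up 0.0827% to 0.127% of the gene counts of a library. Library totals lay between 32158174 and 35485021 gene counts, so that single genes were seen with between 6 counts (Figla) and 5605 counts (Nlrp14) in a library, and 28 genes had at least 100 counts in every library. Levels are given as CPM (counts scaled to a common library total) after normalization by TMM, the trimmed mean of M values. Summed over the 35 genes, CNTR 1 to 3 had 1250.3, 1149.5 and 1043 CPM, and PAMH F3 1 to 4 had 836, 1160.4, 1246 and 1261 CPM. The group means were 1148 ± 103 (SD, n = 3) in CNTR and 1126 ± 198 (SD, n = 4) in PAMH F3, with overlapping libraries. A pair of libraries stood apart. CNTR 2 differed from the other CNTR libraries along the GC content of genes. PAMH F3 1 lay below every other library in the sum of the 35 genes. Without PAMH F3 1 the PAMH F3 mean of the sum was 1222 ± 54.2 (SD, n = 3).

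No difference between CNTR and PAMH F3 ovaries passed the test for any of the 35 genes. By edgeR's quasi-likelihood F test with 2 surrogate variables (estimated axes of unwanted variation), 0 of the 35 passed an adjusted p of 0.05, where 0.0% of the 18779 genes tested passed, and 0 of the 35 had an unadjusted p under 0.05, where 7.63% of the genes tested did. Without the surrogate variables 0 of the 35 again had an unadjusted p under 0.05, against 3.89% of the genes tested. DESeq2 called 101 of 33791 genes with the same surrogate variables and 6 of 33785 without them, and none of the 35 was among either. With so few genes called, 0 of the 35 is near the share over all genes. Fitted log2 fold changes of PAMH F3 over CNTR ran from -0.43 for Figla to 0.25 for Zar1l, with 12 genes above 0 (34.3%) where 52.2% of the genes tested were above 0. Their median was -0.05, beside 0.0067 over the genes tested. That split rested on single libraries: 25 of the 35 were above 0 without PAMH F3 1, with a median of 0.06, and 20 without CNTR 1, but 3 without PAMH F3 3 and 5 without PAMH F3 4.

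No gene of the 35 had all its PAMH F3 libraries above or all below the CNTR libraries, a separation that 4.26% of the genes tested showed. An exact two-sided permutation test, which has 35 ways to divide the libraries and a smallest possible p of 0.0286, gave each gene a p from 0.286 for Tle6 to 1 for Zp2 and Ddx4. The 95% intervals of the log2 fold changes lay within -0.5 and 0.5 for 14 genes and within -1 and 1 for 34, leaving out Figla. Differences inside those intervals are compatible with these data, and the intervals are not limits of detection.

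**Figure D1:**
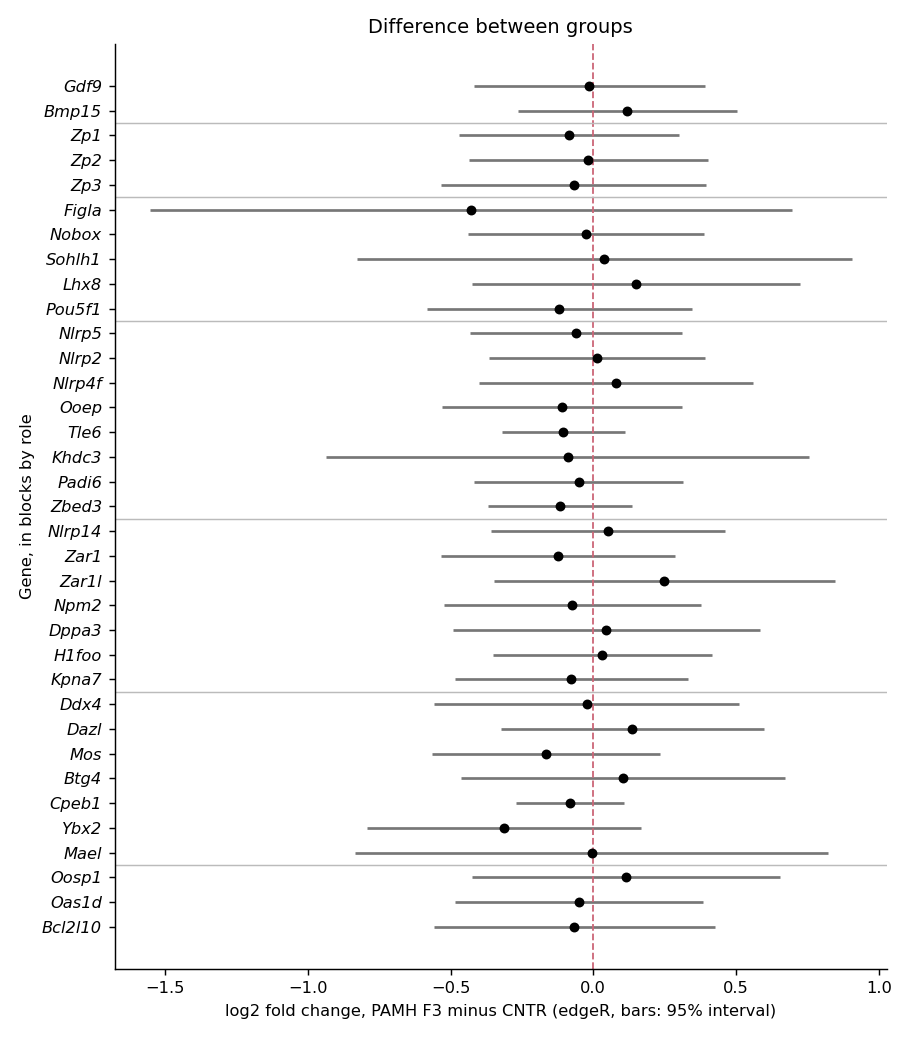
Fitted log2 fold change of PAMH F3 over CNTR (horizontal axis) for each of the 35 genes (vertical axis, in blocks by role), with points for the estimates and bars for 95% intervals from edgeR with 2 surrogate variables. Estimates lie between -0.43 (Figla) and 0.25 (Zar1l), and every interval crosses the dashed line at 0.

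Gdf9 and Bmp15 encode paired members of the transforming growth factor beta family that the oocyte secretes to drive granulosa cell growth. Gdf9 (chr11:53431023-53437904, mm10) was at 109.6, 95.8 and 76.1 CPM in the 3 CNTR libraries and at 68.3, 99.6, 101 and 107 CPM in the 4 PAMH F3 libraries. PAMH F3 1 was the lowest library and CNTR 1 the highest, and the groups overlapped. Group means were 93.8 ± 16.8 CPM in CNTR (SD, n = 3) and 93.9 ± 17.4 CPM in PAMH F3 (SD, n = 4), with a log2 fold change of -0.01, SE 0.17, 95% interval -0.42 to 0.39, edgeR adjusted p = 0.994. Bmp15 (chrX:6314107-6320721) was at 52.6, 35.6 and 39.4 CPM in CNTR 1 to 3 and at 36.6, 48.9, 53.8 and 53.2 CPM in PAMH F3 1 to 4. PAMH F3 3 and 4 lay just above CNTR 1, the highest control, while PAMH F3 1 lay between CNTR 2 and CNTR 3 (log2 fold change of 0.12, SE 0.16, 95% interval -0.27 to 0.50, edgeR adjusted p = 0.898). With 1 library left out at a time, the Bmp15 estimate ran from 0.0060 without PAMH F3 4 to 0.37 without CNTR 1, and it was 0.019 without PAMH F3 3, 0.038 without CNTR 2 and 0.20 without PAMH F3 1.

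The 3 zona pellucida genes encode the glycoproteins of the coat around the oocyte, of which ZP2 binds sperm. Zp2 was at 108, 90.1 and 93.5 CPM in the 3 CNTR libraries and at 68.6, 99.0, 108 and 113 CPM in the 4 PAMH F3 libraries. Zp3 was at 61.2, 67.6 and 51.1 CPM in CNTR 1 to 3 and at 35.2, 57.6, 66.3 and 61.3 CPM in PAMH F3 1 to 4. In both genes PAMH F3 1 was the lowest library and the other 3 PAMH F3 libraries overlapped the CNTR libraries. The edgeR estimate for Zp2 was close to 0 (log2 fold change of -0.02, SE 0.18, 95% interval -0.44 to 0.40, edgeR adjusted p = 0.992). For Zp3 the group means were 60.0 ± 8.33 CPM in CNTR (SD, n = 3) and 55.1 ± 13.8 CPM in PAMH F3 (SD, n = 4), with a log2 fold change of -0.07, SE 0.20, 95% interval -0.53 to 0.40, edgeR adjusted p = 0.964. Zp1, whose product links the ZP2 and ZP3 filaments, was at 30.8, 34.5 and 25.7 CPM in the 3 CNTR libraries and at 22.01, 28.8, 27.5 and 33.5 CPM in the 4 PAMH F3 libraries. CNTR 2 was its highest library and PAMH F3 1 its lowest (log2 fold change of -0.09, SE 0.16, 95% interval -0.47 to 0.30, edgeR adjusted p = 0.936). All 3 estimates were below 0, and 0 of 3 passed the test.

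**Figure D2:**
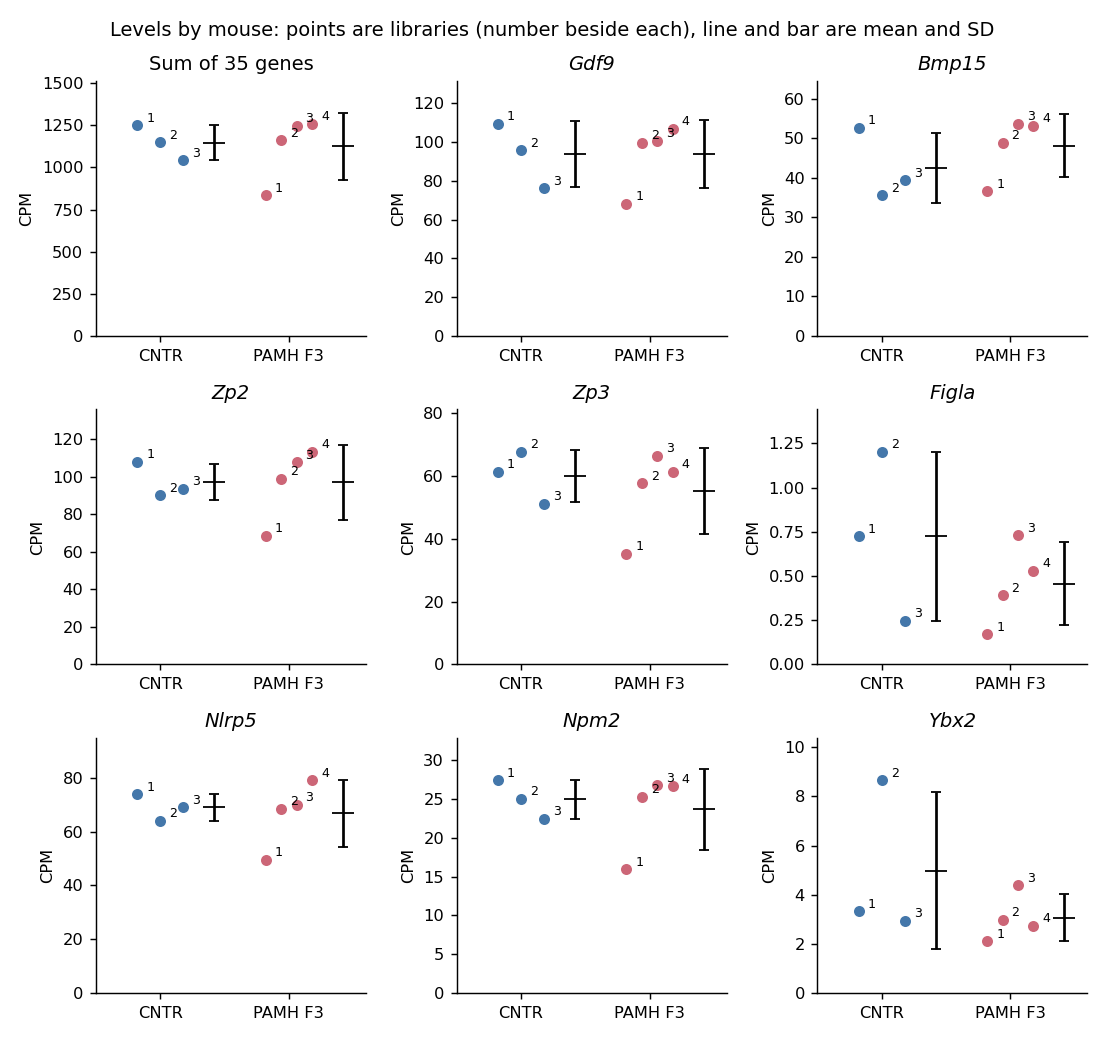
CPM (vertical axes, from 0) in each library for the sum of the 35 genes and for 8 of them, with points for single mice numbered as in the text and a line and bar for the group mean and SD (CNTR n = 3, PAMH F3 n = 4). PAMH F3 1 is the lowest point in every panel except that of Bmp15, where CNTR 2 is lower, and CNTR 2 stands far above the rest for Ybx2.

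Of the 5 transcription factors, Figla and Sohlh1 are basic helix-loop-helix proteins, Nobox and Lhx8 are homeobox proteins of the early follicle, and Pou5f1 (OCT4) is the pluripotency factor that oocytes also carry. Nobox was at 14.6, 14.0 and 10.7 CPM in CNTR 1 to 3 and at 9.34, 12.9, 15.0 and 14.0 CPM in PAMH F3 1 to 4. PAMH F3 1 and CNTR 3 were its lowest libraries, and the other 5 lay close together (log2 fold change of -0.03, SE 0.18, 95% interval -0.44 to 0.39, edgeR adjusted p = 0.989). Figla, the activator of the zona pellucida genes, had few counts in these libraries and was at 0.725, 1.202 and 0.247 CPM in the 3 CNTR libraries and at 0.171, 0.392, 0.730 and 0.530 CPM in the 4 PAMH F3 libraries. These CPM values rest on 6 to 40 counts, with CNTR 2 the highest library and PAMH F3 1 the lowest, 7.03-fold apart. The Figla estimate had the widest interval of the 35 (log2 fold change of -0.43, SE 0.48, 95% interval -1.55 to 0.70, edgeR adjusted p = 0.868). It was -0.67 without surrogate variables, and ran from -0.14 without CNTR 2 to -0.83 without CNTR 3 and -0.82 without PAMH F3 4. Sohlh1 was also at few counts, between 0.285 and 0.814 CPM, and Lhx8 ran from 1.68 to 3.45 CPM. Pou5f1 ran from 2.62 to 4.66 CPM, with CNTR 2 the highest. Pou5f1 shares 317 exon bases with Gm19553 on the opposite strand. The strand setting of the counting is not known, so part of its counts is uncertain. Estimates were above 0 for 2 of the 5, and 0 of 5 passed the test.

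FIGLA binds the E-box (CANNTG) and NOBOX binds TAATTG or TAATTA, so the 250 bases before the transcription start are shown for 4 of the genes, 1 growth factor, 1 zona gene, 1 transcription factor and 1 gene of the maternal complex, whose RefSeq and GENCODE start sites lay within 6 bases of each other. Sequences are from RefSeq on GRCm38.p6 (mm10), 5′ to 3′ on the gene's strand, with matches to either motif in capitals, searched on both strands. Bmp15 (chrX:6320725-6320974, minus strand) has 1 E-box and, upstream of it, 1 TAATTA. Zp3 (chr5:135979855-135980104, plus strand) has 3 E-boxes. Nobox (chr6:43309555-43309804, minus strand) has 2 E-boxes, and Nlrp5 (chr7:23385639-23385888, plus strand) has 2 E-boxes and 1 TAATTA. Another RefSeq entry of Nlrp5 (chr7:23403852-23404101), 18213 bases from the GENCODE start, has 2 E-boxes and no TAATTG or TAATTA. Other genes also met the rule on start sites and are not shown. Of the maternal complex, Nlrp2 met it with 0 E-boxes and 0 matches to TAATTG or TAATTA, and Padi6 with 2 E-boxes and 0 such matches. The 4 sequences are therefore examples and do not stand for their groups.
Bmp15: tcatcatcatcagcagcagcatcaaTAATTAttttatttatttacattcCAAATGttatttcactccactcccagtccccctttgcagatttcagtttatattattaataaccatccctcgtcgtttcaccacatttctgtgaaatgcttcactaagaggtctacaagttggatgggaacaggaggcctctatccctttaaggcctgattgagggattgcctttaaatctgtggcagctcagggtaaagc
Zp3: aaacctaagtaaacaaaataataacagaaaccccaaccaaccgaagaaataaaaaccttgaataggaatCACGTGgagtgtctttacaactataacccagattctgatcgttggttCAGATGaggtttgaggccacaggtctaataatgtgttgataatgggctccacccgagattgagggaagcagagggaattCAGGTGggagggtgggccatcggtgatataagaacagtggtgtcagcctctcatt
Nobox: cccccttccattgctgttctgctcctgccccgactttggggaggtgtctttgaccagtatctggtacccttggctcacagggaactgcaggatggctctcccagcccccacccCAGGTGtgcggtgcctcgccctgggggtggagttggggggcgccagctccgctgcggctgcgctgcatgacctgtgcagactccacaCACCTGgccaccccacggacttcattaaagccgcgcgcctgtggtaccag
Nlrp5: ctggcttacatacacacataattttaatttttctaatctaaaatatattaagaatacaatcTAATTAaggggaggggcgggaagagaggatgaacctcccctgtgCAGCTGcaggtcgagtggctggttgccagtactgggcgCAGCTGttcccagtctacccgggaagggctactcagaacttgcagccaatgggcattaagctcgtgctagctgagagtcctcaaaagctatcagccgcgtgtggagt
RefSeq promoters were at hand for 26 of the 35 genes, in 32 entries, and Gdf9, Zp1, Zp2, Nlrp14, Npm2, Dppa3, Mos, Oas1d and Bcl2l10 had none. An E-box was present in 29 of the 32 entries (90.6%) and in 66.2% of the 32851 mouse promoter entries of the same length. TAATTG or TAATTA was present in 4 of the 32 (12.5%) and in 11.3% of all entries. A match is a description of the letters only, since no binding was measured.

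The subcortical maternal complex is an assembly beneath the oocyte membrane, and its loss stops the embryo at its first divisions. Its 8 genes summed to 444, 449 and 394 CPM in CNTR 1 to 3 and 317, 418, 423 and 457 CPM in PAMH F3 1 to 4. Nlrp5 (MATER), its founding member, was at 73.9, 64.1 and 69.1 CPM in CNTR 1 to 3 and at 49.6, 68.5, 70.01 and 79.1 CPM in PAMH F3 1 to 4. PAMH F3 4 was the highest library of Nlrp5 and PAMH F3 1 the lowest (log2 fold change of -0.06, SE 0.16, 95% interval -0.43 to 0.31, edgeR adjusted p = 0.959). Tle6, a co-repressor relative that belongs to the complex, was at 87.6, 89.7 and 77.5 CPM in the 3 CNTR libraries and at 67.8, 82.4, 79.6 and 83.7 CPM in the 4 PAMH F3 libraries. Its CNTR mean of 85.0 ± 6.51 CPM lay above the PAMH F3 mean of 78.4 ± 7.24 CPM, with PAMH F3 2 and 4 inside the CNTR range (log2 fold change of -0.11, SE 0.09, 95% interval -0.32 to 0.11, edgeR adjusted p = 0.821). Zbed3, a partner of the complex that helps to place the spindle, was at 69.2, 97.9 and 65.3 CPM in CNTR 1 to 3 and at 55.7, 66.8, 71.9 and 70.04 CPM in PAMH F3 1 to 4. CNTR 2 lay above the other 6 libraries, and with it the CNTR mean was 77.5 ± 17.8 CPM and without it 67.3 ± 2.81 CPM, beside 66.1 ± 7.23 CPM in PAMH F3 (log2 fold change of -0.12, SE 0.11, 95% interval -0.37 to 0.13, edgeR adjusted p = 0.832).

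Padi6, a peptidylarginine deiminase needed for the egg's cytoplasmic lattices, was at 143, 135 and 119 CPM in the 3 CNTR libraries and at 97.9, 134, 128 and 153 CPM in the 4 PAMH F3 libraries. PAMH F3 1 and PAMH F3 4 were its lowest and highest libraries, so the PAMH F3 mice spanned the CNTR mice. Ooep (FLOPED) ran from 18.6 CPM in PAMH F3 1 to 31.8 CPM in PAMH F3 3, with its CNTR libraries close together at 30.5 ± 1.19 CPM. Nlrp2 ran from 7.32 to 10.3 CPM and Nlrp4f from 18.99 to 30.8 CPM. Nlrp2 shares 105 exon bases with Gm18757 on the opposite strand, so part of its counts is uncertain. Khdc3 (FILIA), which guards chromosome number in the embryo, was at 0.634, 2.46 and 0.678 CPM in CNTR 1 to 3 and at 0.797, 0.633, 0.982 and 0.779 CPM in PAMH F3 1 to 4. CNTR 2 stood 3.89-fold above the lowest library, while the other 6 lay within a narrow range. Khdc3 shares 790 exon bases with Gm20509 on the same strand, and reads in shared bases are set aside by the counting mode used, so its 21 to 82 counts are uncertain as a level. In this group 2 of 8 estimates were above 0, and 0 of 8 passed the test.

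Another group holds maternal factors that act on chromatin and in the early embryo. Npm2 (nucleoplasmin 2), which opens sperm chromatin after fertilisation, was at 27.4, 25.0 and 22.4 CPM in the 3 CNTR libraries and at 15.9, 25.3, 26.8 and 26.7 CPM in the 4 PAMH F3 libraries. The other 3 PAMH F3 libraries lay close together within the CNTR range, and PAMH F3 1 lay far below them (log2 fold change of -0.07, SE 0.19, 95% interval -0.52 to 0.38, edgeR adjusted p = 0.959). Nlrp14, another NLR-family gene of the oocyte, had the most counts of the 35 genes, at 152, 115 and 129 CPM in CNTR 1 to 3 and at 101, 143, 157 and 159 CPM in PAMH F3 1 to 4. The PAMH F3 libraries spanned the CNTR libraries. Zar1l, a relative of the zygote arrest factor Zar1, had the largest positive estimate, and was at 6.73, 4.90 and 4.69 CPM in the 3 CNTR libraries and at 4.07, 7.24, 8.08 and 7.07 CPM in the 4 PAMH F3 libraries. PAMH F3 1 was its lowest library and the other 3 PAMH F3 libraries lay above all 3 CNTR libraries (log2 fold change of 0.25, SE 0.25, 95% interval -0.35 to 0.85, edgeR adjusted p = 0.852). The Zar1l estimate ran from 0.10 without PAMH F3 4 and 0.12 without PAMH F3 3 to 0.37 without PAMH F3 1 and 0.47 without CNTR 1.

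Zar1 itself ran from 6.52 CPM in PAMH F3 1 to 13.1 CPM in CNTR 2. Dppa3 (Stella), which protects methylation of the maternal genome, ran from 6.26 CPM in PAMH F3 1 to 12.6 CPM in PAMH F3 3. H1foo, the linker histone of the oocyte, ran from 31.2 to 50.03 CPM, and Kpna7, an importin alpha of the egg, from 10.4 to 16.8 CPM. Of the 7 estimates 4 were above 0, and 0 of 7 passed the test. Npm2 shares 39 exon bases with Xpo7 on the same strand and Kpna7 shares 50 with Arpc1a on the opposite strand, and the neighbours had up to 4513 and 6166 counts in a library, so part of these counts is uncertain.

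Genes of meiosis and of mRNA storage and decay summed to 76.1, 67.5 and 63.7 CPM in CNTR 1 to 3 and to 55.0, 67.1, 79.8 and 68.2 CPM in PAMH F3 1 to 4. Mos, the kinase that holds the egg in meiotic arrest, was at 8.15, 8.47 and 7.15 CPM in CNTR 1 to 3 and at 5.04, 7.45, 8.87 and 6.29 CPM in PAMH F3 1 to 4. PAMH F3 held both the highest and the lowest Mos library (log2 fold change of -0.17, SE 0.17, 95% interval -0.56 to 0.23, edgeR adjusted p = 0.854). Cpeb1, which controls polyadenylation of stored mRNA, had the smallest ratio of highest to lowest library of the 35 genes and was at 36.6, 28.2 and 28.0 CPM in the 3 CNTR libraries and at 28.6, 31.4, 33.0 and 28.5 CPM in the 4 PAMH F3 libraries. Its highest library was 1.31-fold above its lowest, and CNTR 1 stood above the other 6 (log2 fold change of -0.08, SE 0.08, 95% interval -0.27 to 0.11, edgeR adjusted p = 0.849). Ddx4 (VASA), the helicase that marks germ cells, was at 5.16, 4.12 and 4.53 CPM in CNTR 1 to 3 and at 3.19, 4.49, 5.58 and 5.08 CPM in PAMH F3 1 to 4. The group means differed by less than their spread, at 4.60 ± 0.528 CPM in CNTR (SD, n = 3) and 4.59 ± 1.03 CPM in PAMH F3 (SD, n = 4), with a log2 fold change of -0.02, SE 0.23, 95% interval -0.56 to 0.51, edgeR adjusted p = 0.992.

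Ybx2 (MSY2), the protein that coats stored mRNA in the growing oocyte, was at 3.32, 8.65 and 2.93 CPM in the 3 CNTR libraries and at 2.11, 2.99, 4.38 and 2.74 CPM in the 4 PAMH F3 libraries. CNTR 2 alone carried the CNTR mean of 4.97 ± 3.20 CPM, which was 3.13 ± 0.278 CPM without it, beside 3.05 ± 0.958 CPM in PAMH F3. Its edgeR estimate had the smallest unadjusted p of the 35, 0.167 (log2 fold change of -0.31, SE 0.20, 95% interval -0.79 to 0.17, edgeR adjusted p = 0.769). That estimate was -0.70 without surrogate variables, -0.75 without CNTR 1 and -0.54 without CNTR 3, but -0.10 without CNTR 2 and -0.18 without PAMH F3 2. Btg4, which recruits the deadenylase that clears maternal mRNA, ran from 9.14 to 17.1 CPM, and Dazl, a translation factor of germ cells, from 6.15 to 9.77 CPM. Mael, of the pathway that silences transposons, ran from 0.678 to 1.40 CPM. For these genes 2 of 7 estimates were above 0, and 0 of 7 passed the test. Of the remaining genes, Oosp1, a secreted oocyte protein, ran from 14.2 to 27.8 CPM, Oas1d, an oocyte member of the oligoadenylate synthetase family, from 15.0 to 25.4 CPM, and Bcl2l10, a relative of BCL2, from 14.5 to 31.0 CPM. PAMH F3 1 was the lowest library of all 3, and 0 of 3 passed the test. The 19 genes whose fitted statistics are not given one by one had estimates from -0.12 to 0.15 and unadjusted p of at least 0.50 in edgeR with surrogate variables. Of these, Khdc3 depended on the setting. Its estimate was -0.09 with surrogate variables and -0.65 without them (SE 0.47), and ran from -0.73 to 0.28 over the left-out libraries.

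Levels were compared between genes per kilobase of the median length of each gene's annotated transcripts. On that scale Gdf9 stood highest at 219 CPM per kilobase, ahead of Padi6 at 200.2 and Tle6 at 129.9, and Sohlh1 stood lowest at 0.492. Of the 34 neighbouring pairs in the order, the 7 libraries of the upper gene all lay above those of the lower for 2 only, Padi6 over Tle6 and Tle6 over Nlrp14. The upper gene was the higher within each of the 7 libraries for 9 of the 34 pairs, so most neighbours did not differ beyond their spread. The order depended on the length used. Gdf9 has a median transcript length of 429 bases and a summed exon length of 2031, and by summed exon length Padi6 came first at 51.3 CPM per kilobase, Gdf9 followed at 46.2 and Tle6 fell to rank 8 (rank correlation of the orders across the 35 genes 0.932). Cpeb1 moved from rank 7 to rank 18 and Nlrp4f from rank 11 to rank 20.

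**Figure D3:**
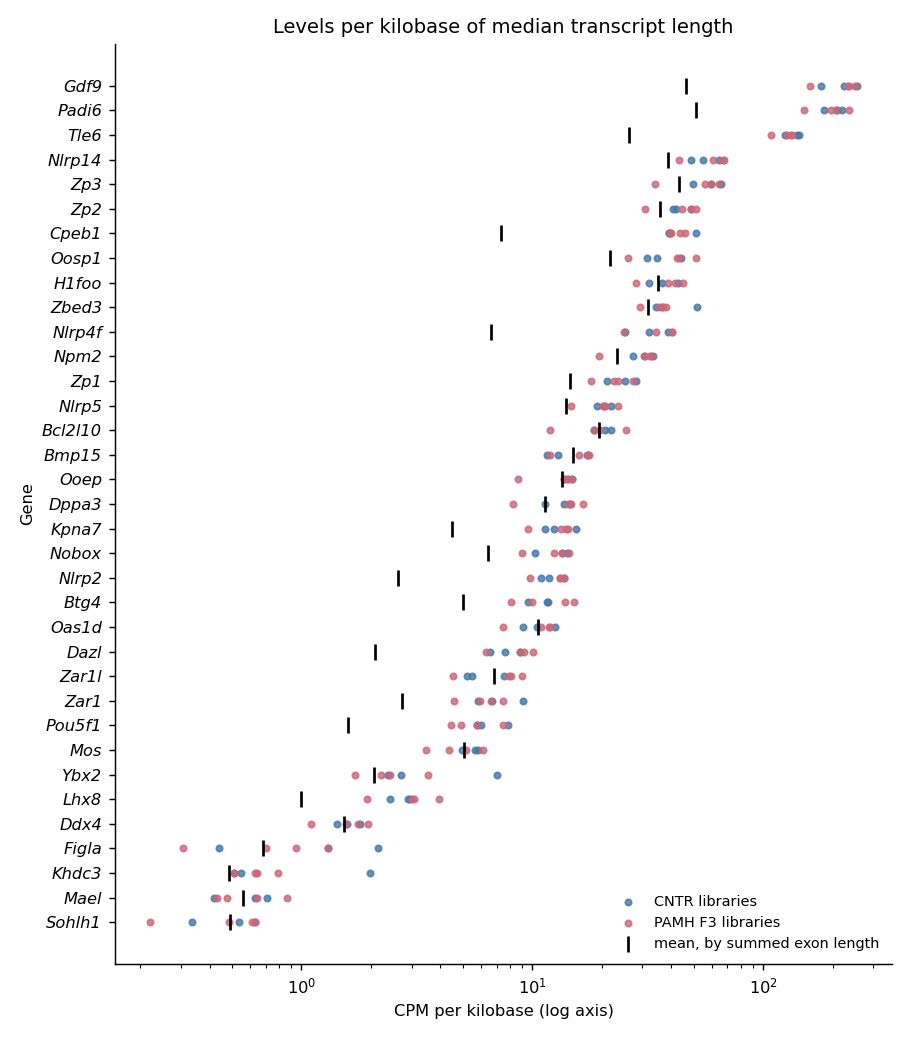
CPM per kilobase of median transcript length (horizontal log axis) in each of the 7 libraries for the 35 genes (vertical axis, in order of their mean), coloured by group, with black marks for the mean per kilobase of summed exon length. Library points of neighbouring genes overlap along most of the order, and the black mark of Gdf9 lies at 46.2 against 219 by median length.

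The 35 genes varied together from mouse to mouse. Over the 7 libraries, on log2(CPM + 1), the 595 pairs had a median Pearson correlation of 0.71 (median Spearman 0.57), and 569 pairs were above 0. Their mean was 0.63, beside 0.0015 over all pairs of the genes tested, and within groups (after subtracting each group's mean) the median was 0.75. With the mean of the other 34, 20 genes correlated above 0.8 and 12 above 0.9, where 0.427% of the other genes tested correlated above 0.9 with the mean of the 35. Dppa3 (0.98), Nobox (0.98), Npm2 (0.97) and Zp3 (0.97) followed the others most closely, and Khdc3 (0.15), Ybx2 (0.47) and Cpeb1 (0.47) least. After centring each gene on the other 34, its SD over libraries was smaller for 33 of the 35, with a median that fell from 0.25 to 0.14 on the log2 scale. All pairs share the same 7 libraries and their scaling.

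The shared movement was largest in 1 mouse. PAMH F3 1 was the lowest library for 31 of the 35 genes and above the gene's own mean for none. PAMH F3 3 was the highest for 16, CNTR 2 for 9 and CNTR 1 and PAMH F3 4 for 5 each. Without PAMH F3 1 the median pairwise correlation over the 6 remaining libraries was 0.46 (Spearman 0.43), and without PAMH F3 1 and CNTR 3, the libraries farthest from the median of the mean level, it was 0.21 (Spearman 0.20). Without CNTR 2 it rose to 0.86.

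**Figure D4:**
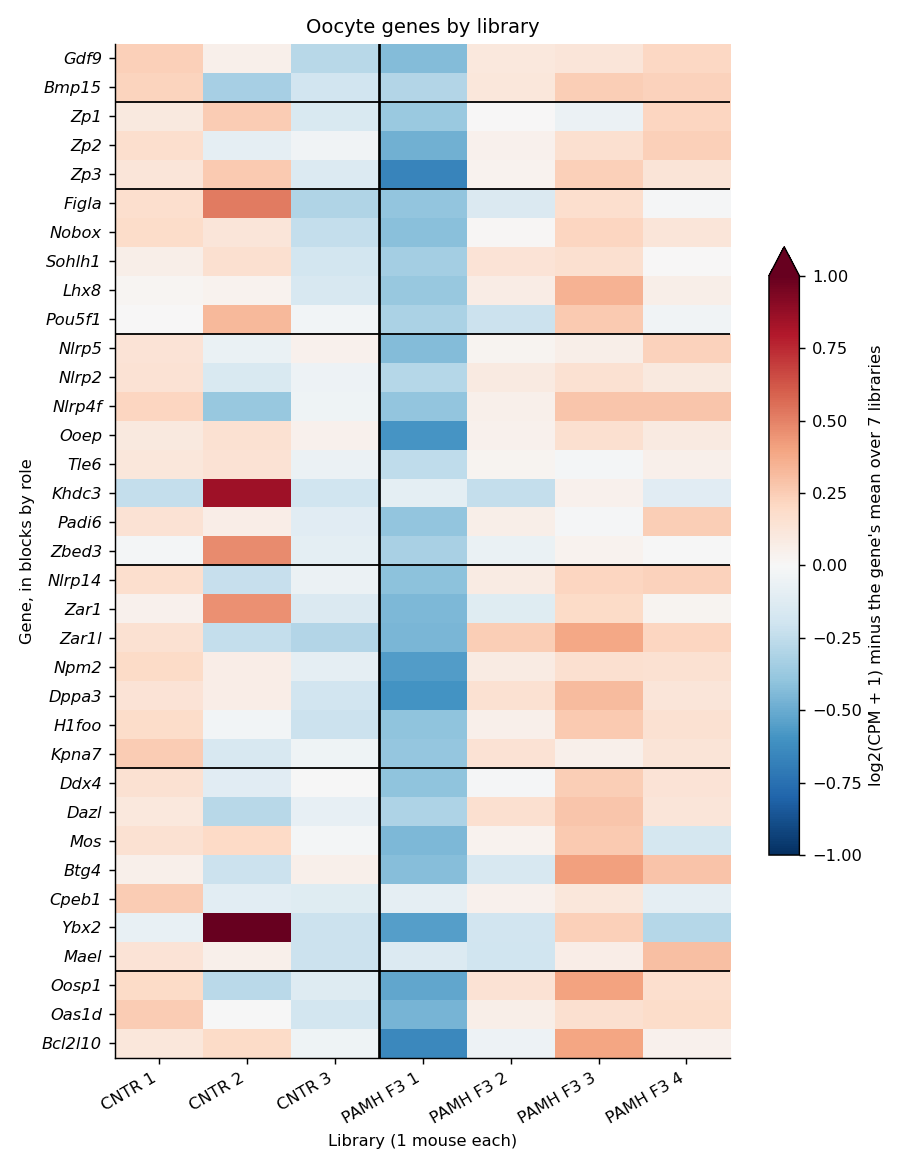
Each gene's log2(CPM + 1) in a library minus its mean over the 7 libraries (colour, red above and blue below) for the 35 genes (vertical axis, in blocks by role) and 7 libraries (horizontal axis, CNTR left of the line). The PAMH F3 1 column is blue for all 35 genes, and the CNTR 2 column holds the strongest red cells, Ybx2 and Khdc3.

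CNTR 2 differed from the other CNTR libraries along GC content. Its log2 level minus the mean of CNTR 1 and 3 correlated with the GC content of the exons at r = 0.74 across the 35 genes, which span 36.8% to 59.7% GC, and at r = 0.56 across the 18773 tested genes with a GC value (genes are not independent replicates). Of the 17 genes above the median GC content of the 35, 15 were higher in CNTR 2 than in the other CNTR libraries, and of the 17 below it 13 were lower. Ybx2 (59.7% GC) was raised by 1.23 and Khdc3 (56.6%) by 1.06 on the log2 scale, whereas Nlrp4f (40.8%) fell by 0.46 and Bmp15 (42.5%) fell by 0.35. The part of GC content in the levels of Ybx2, Khdc3, Zbed3 and Figla was not tested.

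**Figure D5:**
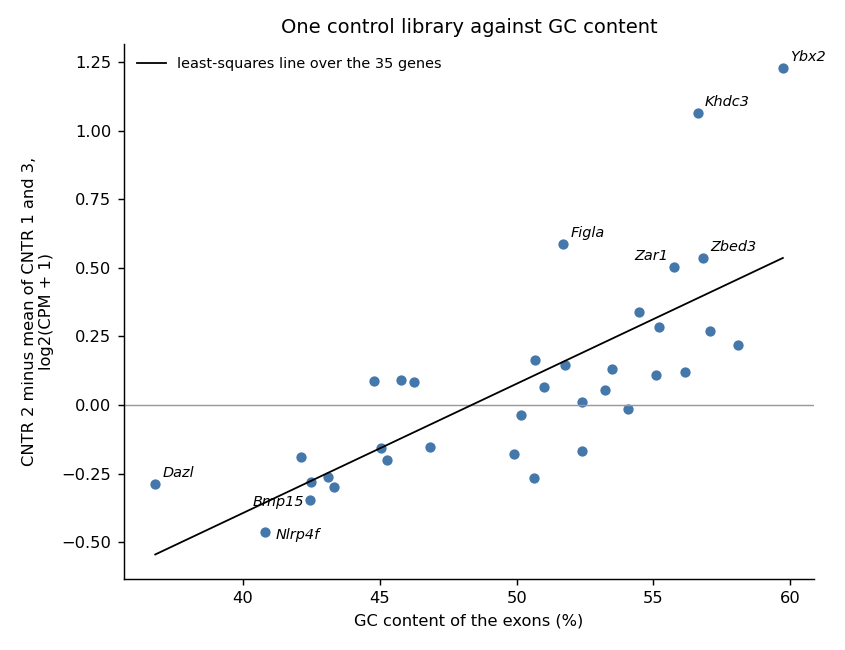
Level in CNTR 2 minus the mean of CNTR 1 and CNTR 3 in log2(CPM + 1) (vertical axis) against the GC content of each gene's exons in percent (horizontal axis) for the 35 genes, with a least-squares line. The points rise from Nlrp4f and Dazl at low GC content to Khdc3 and Ybx2 at high GC content (r = 0.74).

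A separate list held 36 other genes of the oocyte. Of these 34 were tested, 22 of them with estimates above 0 and a median log2 fold change of 0.02, and 0 passed the test or had an unadjusted p under 0.05 in edgeR. Summed, they were at 475, 459 and 418 CPM in CNTR 1 to 3 and at 354, 457, 487 and 489 CPM in PAMH F3 1 to 4, again lowest in PAMH F3 1. The first 5 by mean CPM, a scale not corrected for length, were Uchl1, a ubiquitin hydrolase, at 82.3 CPM, Taf4b, a transcription cofactor, at 41.4, Astl, the cortical granule protease ovastacin, at 24.0, Eif4e1b, a translation factor of the oocyte, at 23.4, and Tcl1 at 20.5. The median correlation of the 34 with the mean of the 35 was 0.75, with 13 above 0.8. Uchl1 and Taf4b did not follow it (0.05 and 0.06), while Astl (0.92) and Tcl1 (0.96) did.

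Among all other tested genes, the 10 most like the mean of the 35 over the 7 libraries were Gtsf1, Pdcd7, 2210406O10Rik, Gcsh, Patl2, Elobl, Smim11, Rnf17, Igf2bp2 and Tcl1, with Pearson correlations from 0.979 to 0.960. Gtsf1, Patl2 and Tcl1 were on the list of other oocyte genes. Gcsh and Smim11 changed little in size, from 46.3 to 53.7 CPM and from 32.7 to 38.1 CPM between their lowest and highest library, whereas Rnf17 ran from 2.73 to 6.43 CPM.

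Markers of other cells of the ovary and its surroundings were summed by list, and their part in the levels of the 35 genes was not tested. The 8 granulosa markers summed to 2679 to 4078 CPM in CNTR and 3075 to 4189.5 CPM in PAMH F3, with the largest share of those reads in every library from Inha, the inhibin alpha subunit. Their correlations with the mean of the 35 had a median of 0.02 but went both ways, from 0.73 for Amh and 0.38 for Foxl2 to -0.22 for Inhbb and -0.31 for Cyp19a1, and in edgeR 2 of the 8 were higher and 2 lower at an unadjusted p under 0.05, beside 7.63% of all genes tested, with 0 called. The 3 endothelial markers had a median correlation of -0.53 and summed to 162 to 202 CPM in CNTR and 135 to 207 CPM in PAMH F3. Of these Cdh5 and Kdr were highest in PAMH F3 1 and Pecam1 in CNTR 1. The 3 leukocyte markers (-0.49) summed to 58.3 CPM in PAMH F3 1 and to 39.3 to 49.4 CPM in the remaining 6 libraries, a gap carried by Cd68, at 38.0 CPM in PAMH F3 1, since Ptprc was highest in CNTR 3 and Cd3e in PAMH F3 4. The 6 luteal markers (-0.44) summed to 6188 to 8952 CPM in CNTR and 5927 to 8136 CPM in PAMH F3, and the 5 oviduct markers (0.34) to 2976 to 5307 CPM and 2551 to 6449.5 CPM. Single genes held most of both sums, with library means of 4920 CPM for Hsd3b1 (luteal) and 4093 CPM for Ovgp1 (oviduct). The 5 theca and stroma markers (-0.27) summed to 1344 to 1648 CPM and 1034 to 1364 CPM, the 3 smooth muscle markers (-0.43) to 889 to 1320.1 CPM and 744 to 1184 CPM, and the 3 adipocyte markers (0.33) to 109.9 to 325 CPM and 49.1 to 237 CPM. Overlapping sums can hide single genes. In edgeR 2 luteal markers (Ptgfr, Prlr), 1 endothelial (Pecam1) and 1 of theca and stroma (Tcf21) were lower at an unadjusted p under 0.05, beside 7.63% of all genes tested. None was higher at that threshold, the oviduct, leukocyte, smooth muscle and adipocyte lists had 0 either way, and 0 were called. Of 4 spermatid genes, 2 were at 0 in all libraries and the others reached at most 4 counts, beside at least 22 counts for Ddx4, Dazl, Mael and Ybx2, which male germ cells also express.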

How the data were processed

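Poly(A) RNA of 7 mouse ovaries was sequenced as 50-base single reads. Per the labels and the study's methods, the authors called bases with bcl2fastq 2.17.1.14, mapped reads to mm10 with STAR 2.5.3a and counted uniquely aligned reads per Ensembl gene with HTSeq 0.6.1p1 in union mode, so that reads shared by overlapping genes or near-identical copies were set aside. The deposited values are raw counts per gene without normalization. The Ensembl release and the strand setting of the counting are not given in the sources used here. HTSeq's summary lines stayed out of every test, and reads with no feature were 5.82% to 7.37% of those listed per library. Columns left unused numbered 0.

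Identifiers were paired with symbols through GENCODE M21 (55394 of 55487 matched). The 35 members, the other lists and the tests were chosen with earlier results of these data known. Counts of all genes were scaled to TMM CPM with the library sizes and factors of the genes tested. CNTR (n = 3) and PAMH F3 (n = 4) were compared in edgeR 4.0.16 under R 4.3.3, using its quasi-likelihood F test on the 18779 genes kept by filterByExpr at a minimum count of 10, with 2 surrogate variables from svaseq (sva 3.50.0), which left 3 residual degrees of freedom. Benjamini-Hochberg adjustment ran over all genes tested, with a threshold of 0.05 on the adjusted p. Exact permutation tests on CPM covered single genes. Correlations and per-kilobase levels are descriptive, with a pseudocount of 1 on the log2 scale. The edgeR test was checked on simulated counts. Fitted statistics were given for Gdf9, Bmp15, Zp1, Zp2, Zp3, Figla, Nobox, Nlrp5, Npm2 and Ddx4 and for the 8 genes with the smallest p, 16 in all, and library levels for these and for genes with a large ratio of highest to lowest library. Padi6 and Nlrp14 were also given by library, chosen after their values were seen. Alternatives were DESeq2 1.42.0, other numbers of surrogate variables, normalizations and filters, a replicate block and each library left out. Whether the replicate numbers pair the samples is not known, and the main test used no pairing. Within groups all pairs of libraries differed by more than sampling noise. The main edgeR p-values set each difference against the spread between these mice that was left after the 2 surrogate variables. The permutation p-values use CPM without surrogate variables. At 32158174 to 35485021 gene counts per library counting error matters mainly for Figla, Sohlh1, Khdc3 and Mael.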

Additional observations from a re-analysis of the deposited data

Results flagged for a closer look

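In the PAMH F3 group PAMH F3 1 lay far from the other 3 libraries for 2 of the 35 genes by Dixon's test. Chance passes this test in about 1 of 20 independent groups, and 2 of 35 is near that rate. The 35 genes share the same mice and vary together, so they are not independent groups and that rate is only a rough guide. The share over all genes tested was not computed. Nlrp2 was at 7.32 CPM in PAMH F3 1, against 9.80 to 10.3 CPM in the others. Npm2 was at 15.9 CPM, against 25.3 to 26.8 CPM. PAMH F3 1 was the lowest of the 7 libraries for 31 of the 35 genes. Its cause was not tested.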

How the results depend on the processing

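No gene of the 35 was called under any setting. Genes called among all tested moved from 0 to 101 with DESeq2 and the same surrogate variables, 6 with DESeq2 without them, 8 without a filter on low counts, and 0 to 37 when each library was left out, with 37 without CNTR 1 and 31 without PAMH F3 1. Genes of the 35 with an unadjusted p under 0.05 numbered 0 to 3 over the left-out libraries: Khdc3, Zbed3 and Ybx2, all lower, without CNTR 1, Zbed3 and Ybx2, both lower, without CNTR 3 or PAMH F3 4, and Bmp15 and Zar1l, both higher, without PAMH F3 1. These are 8.57% of the 35 without CNTR 1 and 5.71% in the other settings, beside 17.1%, 8.68%, 6.47% and 10.6% of all genes tested without CNTR 1, CNTR 3, PAMH F3 4 and PAMH F3 1. Genes above 0 in PAMH F3 numbered 3 to 25 over the left-out libraries. The ratio of summed levels, PAMH F3 over CNTR, was 0.981 and ran from 0.938 without CNTR 3 to 1.065 without PAMH F3 1. It was also above 1 without CNTR 1 (1.027), so its direction rested on single libraries. All shifts were smaller than the SD between replicates, 14.7% of the mean. Of 255 alternative estimates for 16 genes, 16 were reversed, none past the threshold, and 8 genes were never reversed. Gdf9 became 0.0004 without surrogate variables, 0.018 with 1 surrogate variable and 0.001 with DESeq2 without them, and Cpeb1 became 0.012 with the replicate block. Over the left-out libraries the estimates ran from -0.184 to 0.121 for Gdf9, -0.15 to 0.083 for Zp2, -0.227 to 0.055 for Zp3, -0.175 to 0.062 for Nobox, -0.175 to 0.031 for Nlrp5, -0.213 to 0.038 for Npm2, -0.185 to 0.093 for Ddx4 and -0.131 to 0.122 for Cpeb1, positive without PAMH F3 1 (7 of the 8, leaving out Cpeb1) or without CNTR 1 (Gdf9, Zp2, Nobox, Ddx4 and Cpeb1). The other 8 kept their sign but moved in size, with left-out ranges of 0.006 to 0.366 for Bmp15, 0.104 to 0.468 for Zar1l, -0.245 to -0.011 for Zp1, -0.834 to -0.139 for Figla, -0.178 to -0.059 for Tle6, -0.296 to -0.075 for Mos, -0.288 to -0.036 for Zbed3 and -0.752 to -0.096 for Ybx2. The replicate block without surrogate variables called 0 genes, with 9 of the 35 above 0 and a median of -0.10. Same-numbered libraries correlated at 0.0957, 0.0965 and -0.248 in their deviations from group means, and libraries of different numbers at -0.235 to 0.277. So few correlations cannot decide whether the numbers pair the samples, and that is not known. The order of levels per kilobase correlated at 0.932 with that by summed exon length. Chosen after seeing the data, the median pairwise correlation, 0.71, was 0.46 to 0.86 without PAMH F3 1 or CNTR 2, and 0.21 without PAMH F3 1 and CNTR 3.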
